A study of Arabidopsis thaliana with 54 samples.

Results

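The response of *cif1 cif2* roots to 480 min of CIF2 was followed in 6 of the 54 root RNA-seq libraries of the study, 3 from roots kept on 100 nM CIF2 and 3 from roots kept without peptide. They were chosen by genotype, time point and the treatment named in the sample titles. *cif1 cif2* (*cif1-2 cif2-2*) is a Columbia (Col-0) line in which 1 CRISPR-Cas9 protospacer was used to mutate both peptide genes, *CIF1* and *CIF2*. The other libraries used here came from wild-type Col-0 and from *sgn3-3*, a T-DNA line of the CIF receptor gene, at 480 min, and from *cif1 cif2* at 30 and 120 min, with and without 100 nM CIF2. All seedlings were 5 days old when they were moved from solid medium to fresh medium with or without the peptide, and whole roots were taken without the aerial parts. Each group had 3 libraries, 1 from each of 3 batches.

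The Casparian strip is a ring of lignin in the wall of each endodermal cell of the root, which closes the space between cells to passive flow of water and ions. CASP membrane proteins mark its place, and peroxidases, dirigent proteins and NADPH oxidases make the lignin. The sulfated peptides CIF1 and CIF2 are made in the stele. Their receptor in the endodermis, SGN3, lies on both sides of the strip. The kinase SGN1, which relays its signal, lies on the cortex side. The peptides can reach SGN3 on that side only as long as the strip is open, so the pathway acts as a check on the barrier. Where the peptide keeps reaching SGN3 there, the endodermis lays down more lignin and, later, suberin, a lipid polyester that coats the cell. In *cif1 cif2* both peptide genes are mutated, and the peptide was supplied in the medium.

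The 6 libraries held 24832221 to 33352177 reads assigned to genes. The treatment labels of the 3 libraries titled as CIF2-treated say no peptide, and these libraries were followed by their titles. This was compared with wild type, whose libraries are in neither arm of the mutant comparison, though all 54 libraries were fitted in a shared model. Over the 380 genes called up in wild type at 480 min (1.93% of 19668 genes tested), the median log2 difference from the mean of untreated wild type was 1.52, 1.56 and 1.45 in the 3 libraries titled CIF2, against 0.11, −0.06 and −0.09 in the 3 titled no peptide. Over the 71 genes called down there (0.361%), it was −1.06, −1.27 and −1.16 in the libraries titled CIF2, against 0.03, −0.08 and 0.10 in those titled no peptide. All 3 libraries with the conflicting label thus lay on the treated side of the genes that changed in wild type. The labels do not say whether libraries of 1 batch came from separate cultures, so the *P*-values measure the spread between these libraries.

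CIF2 changed 486 genes in *cif1 cif2* at 480 min, 416 up and 70 down. These are 2.12% and 0.356% of the genes tested, where a call needed an edgeR *P*-value no higher than 0.05 after adjustment and a change of 1 or more on the log2 scale. The log2 fold change (log2FC) is that of CIF2 over no peptide. The rise was at least 4-fold for 116 genes, at least 8-fold for 42 and at least 16-fold for 19, whereas 11 genes fell at least 4-fold and 2 at least 8-fold. The median log2 fold change was 1.52 for the genes called up and −1.33 for those called down, against −0.01 over all genes tested. In single batches, the median difference in log2 CPM (read counts scaled to the effective library size) of the genes called up was 1.40, 1.62 and 1.51, and 411 of the 416 rose in all 3 batches, as all 70 of the others fell in all 3. The treated and untreated libraries did not overlap for 408 of the genes called up and 68 of those called down, and did not overlap for 21.5% of all genes tested. The genes called up made up 3.17%, 3.34% and 3.19% of the normalised counts in CIF2-treated roots, against 1.1%, 1.01% and 1.0% in untreated roots, and those called down 0.194%, 0.190% and 0.199%, against 0.508%, 0.478% and 0.562%. These shares describe genes picked for this difference.

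**Figure D1:**
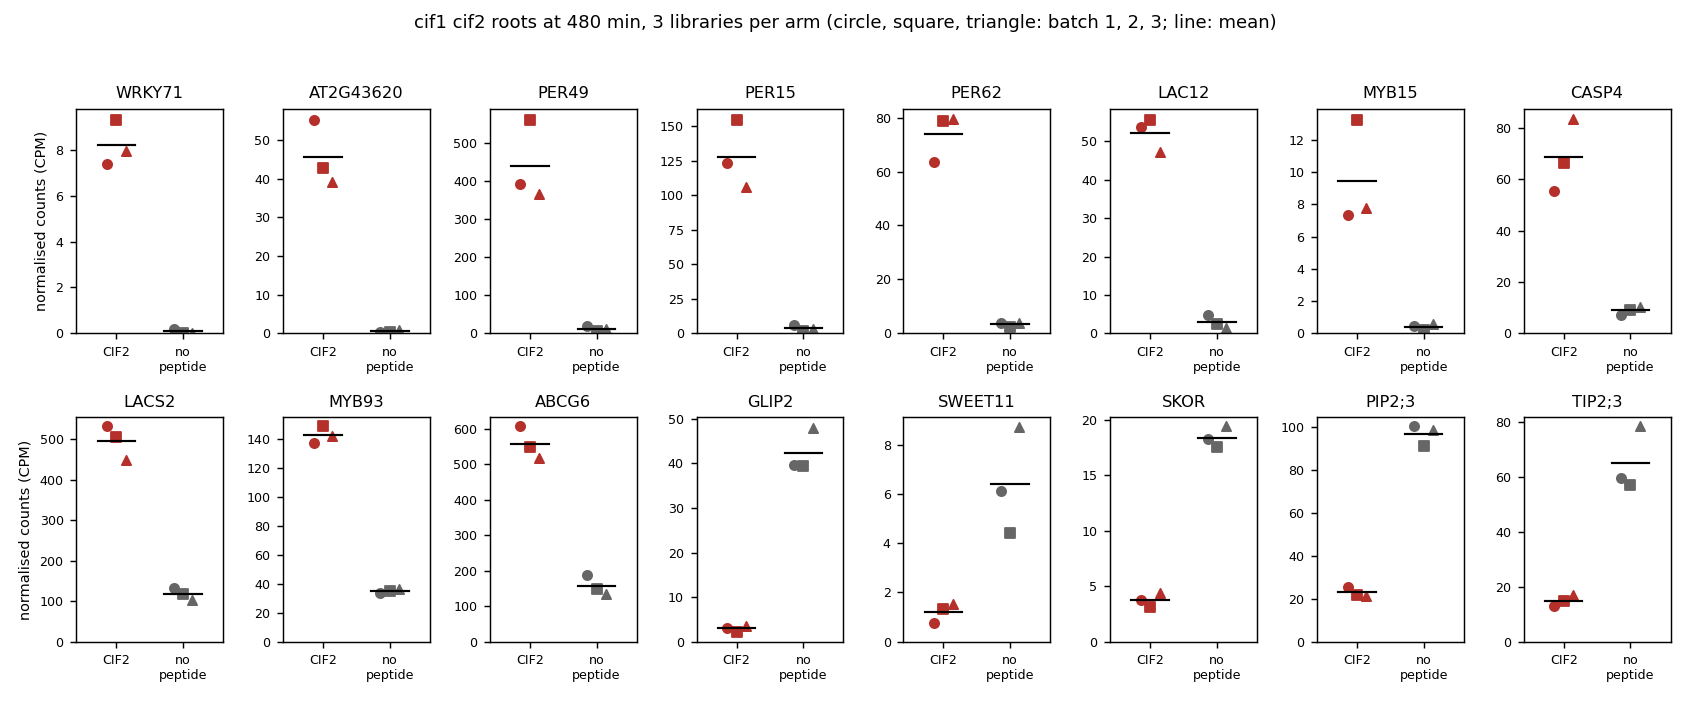
Normalised counts (CPM) of 16 genes in the 6 *cif1 cif2* libraries at 480 min, CIF2-treated left and untreated right. Symbols give the batch and lines the mean of 3 libraries. In each of the 16 panels the treated and untreated libraries are apart, with the first 11 genes higher and the last 5 lower in treated roots.

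Several of the largest increases were of genes near 0 CPM without peptide. *WRKY71* (AT1G29860), a transcription factor of the WRKY family, had 7.39, 9.3 and 7.96 CPM in CIF2-treated roots, against 0.194, 0.036 and 0.0337 CPM in untreated roots (log2FC 6.54 ± 0.37 SE, edgeR adjusted *P* = 2.2e-17). AT2G43620, annotated as a chitinase family protein, had 55.3, 42.8 and 39 CPM in CIF2-treated roots, against 0.466, 0.432 and 0.944 CPM in untreated roots (log2FC 6.2 ± 0.29 SE, edgeR adjusted *P* = 9.0e-20). AT5G35380, annotated as a kinase with a domain like that of adenine nucleotide alpha hydrolases, had 3.71, 3.81 and 3.72 CPM in CIF2-treated roots, against 1, 0 and 1 counts in the 3 untreated libraries. Set against a floor of 3 counts per library, it was at least 34.5-fold higher with CIF2, and *PP2-B13* (AT1G56240), a phloem protein 2 relative with at most 2 counts in each untreated library, at least 19.3-fold. The treated libraries were far above all untreated ones for each of these genes. The uncharacterized genes AT1G65500 (log2FC 5.53 ± 0.41 SE, edgeR adjusted *P* = 5.5e-14) and AT5G36925 (log2FC 4.09 ± 0.46 SE, edgeR adjusted *P* = 3.9e-09), and AT1G72060 (log2FC 4.53 ± 0.52 SE, edgeR adjusted *P* = 4.9e-09), a serine endopeptidase inhibitor, were also among the 12 largest increases. In AT1G72060 and *PP2-B13*, an annotated gene on the other strand overlaps the counted gene. Whether reads were counted by strand is not given in the sources used here, so reads of such pairs cannot be told apart. The same holds for *FRK1*, *FLS2*, *WRKY53*, *CCR2*, *FAR4*, *ABCG1*, *MYB9*, *SGN3* and AT2G05665, and for *MYB53*, which a gene on its own strand overlaps.

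Several enzymes that polymerise lignin in the wall were among the largest increases. Class III peroxidases oxidise monolignols with hydrogen peroxide. Of 73 family members, 57 passed the filter on low counts, and 12 of them were called up and 2 down. With the adjusted *P*-value alone, 20 of the 57 passed with a higher and 9 with a lower level. *PER49* (AT4G36430, chr4:17204385-17206033 on TAIR10.1) had 391, 561 and 366 CPM in CIF2-treated roots, against 18.5, 7.41 and 11.2 CPM in untreated roots (log2FC 5.16 ± 0.40 SE, edgeR adjusted *P* = 1.2e-13). *PER15* (AT2G18150, chr2:7892034-7893709) had 123, 155 and 106 CPM in CIF2-treated roots, against 5.9, 1.94 and 3.54 CPM in untreated roots (log2FC 5.09 ± 0.36 SE, edgeR adjusted *P* = 1.3e-14). Both were highest in the treated library of batch 2, and each untreated library was below every treated one. *PER62* (AT5G39580) had 63.4, 78.8 and 79.3 CPM in CIF2-treated roots, against 3.73, 2.55 and 3.95 CPM in untreated roots (log2FC 4.43 ± 0.26 SE, edgeR adjusted *P* = 6.6e-17). *PER52* (AT5G05340) had 64.9, 69.5 and 43.3 CPM in CIF2-treated roots, against 8.85, 1.8 and 5.03 CPM in untreated roots (log2FC 3.49 ± 0.55 SE, edgeR adjusted *P* = 6.3e-06). Its untreated libraries differed among themselves more than those of *PER62*. *PER20* had a log2FC of 1.96 (SE 0.14, edgeR adjusted *P* = 2.9e-14). The other 7 called up, *PER11*, *PER37*, *PER71*, *PER9*, *PER72*, *PER4* and *PER5*, had values between 1.14 and 1.92. Those called down were *PER32* (AT3G32980), with 625, 593 and 574 CPM in CIF2-treated roots, against 1833, 1584 and 1663 CPM in untreated roots (log2FC −1.5 ± 0.08 SE, edgeR adjusted *P* = 3.2e-18), and *PER3* (AT1G05260), with 184, 193 and 254 CPM in CIF2-treated roots, against 411, 443 and 491 CPM in untreated roots (log2FC −1.1 ± 0.10 SE, edgeR adjusted *P* = 1.5e-11). The median over the 57 was 0.09, and it was 0.19 without batch 1 and 0.23 without batch 3.

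Laccases oxidise monolignols with oxygen. Of 16 members tested, 4 were called up and none down, and the other 12 lay between −0.55 and 0.34. Of these 12, 2 passed the adjusted *P*-value with a lower level. *LAC12* (AT5G05390) had 53.7, 55.6 and 47.1 CPM in CIF2-treated roots, against 4.81, 2.52 and 1.48 CPM in untreated roots (log2FC 4.20 ± 0.28 SE, edgeR adjusted *P* = 3.0e-15). *LAC13* (AT5G07130) had 279.8, 253 and 207 CPM in CIF2-treated roots, against 43.7, 33.5 and 26.5 CPM in untreated roots (log2FC 2.85 ± 0.13 SE, edgeR adjusted *P* = 9.0e-20). *LAC5* (AT2G40370) had 312, 295 and 271 CPM in CIF2-treated roots, against 49.5, 42.3 and 40.9 CPM in untreated roots (log2FC 2.73 ± 0.12 SE, edgeR adjusted *P* = 1.2e-20). *LAC3* (AT2G30210) was the most modest, with 438, 405 and 428 CPM in CIF2-treated roots, against 196, 168 and 152 CPM in untreated roots (log2FC 1.3 ± 0.10 SE, edgeR adjusted *P* = 4.5e-14). For *LAC12* and *LAC13*, batch 1 was highest without peptide, yet no untreated library reached a treated one.

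Of the enzymes that make the monolignols, 21 were tested, and 2 were called up and none down. Over all genes tested, 2.12% were called up and 0.356% down. The 2 called were *CCR2* (AT1G80820), a cinnamoyl-CoA reductase, and *PAL4* (AT3G10340), a phenylalanine ammonia-lyase. *CCR2* had 63.0, 65.8 and 64.1 CPM in CIF2-treated roots, against 24.1, 18.4 and 20.2 CPM in untreated roots (log2FC 1.62 ± 0.13 SE, edgeR adjusted *P* = 6.3e-13), and *PAL4* had 246, 233 and 209 CPM in CIF2-treated roots, against 111, 97.6 and 118 CPM in untreated roots (log2FC 1.08 ± 0.11 SE, edgeR adjusted *P* = 4.1e-10). A further 8 passed the adjusted *P*-value with smaller increases and 1 with a decrease, and the median over the list was 0.22. Over all 19668 genes tested, 1368 passed the adjusted *P*-value with a higher and 771 with a lower level. Among 12 transcription factors of lignin genes, only *MYB15* (AT3G23250), known for lignin made in defence, was called. It had 7.36, 13.2 and 7.8 CPM in CIF2-treated roots, against 0.466, 0.216 and 0.573 CPM in untreated roots (log2FC 4.46 ± 0.40 SE, edgeR adjusted *P* = 8.8e-12). The regulators of xylem lignin *MYB58*, *MYB63*, *MYB85*, *MYB46* and *MYB83* had log2FC values of 0.02, 0.46, 0.14, −0.40 and −0.01 and were not called. Of the 12 factors, 3 passed the adjusted *P*-value with a higher level, *MYB15* among them, and 1 with a lower level.

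**Figure D2:**
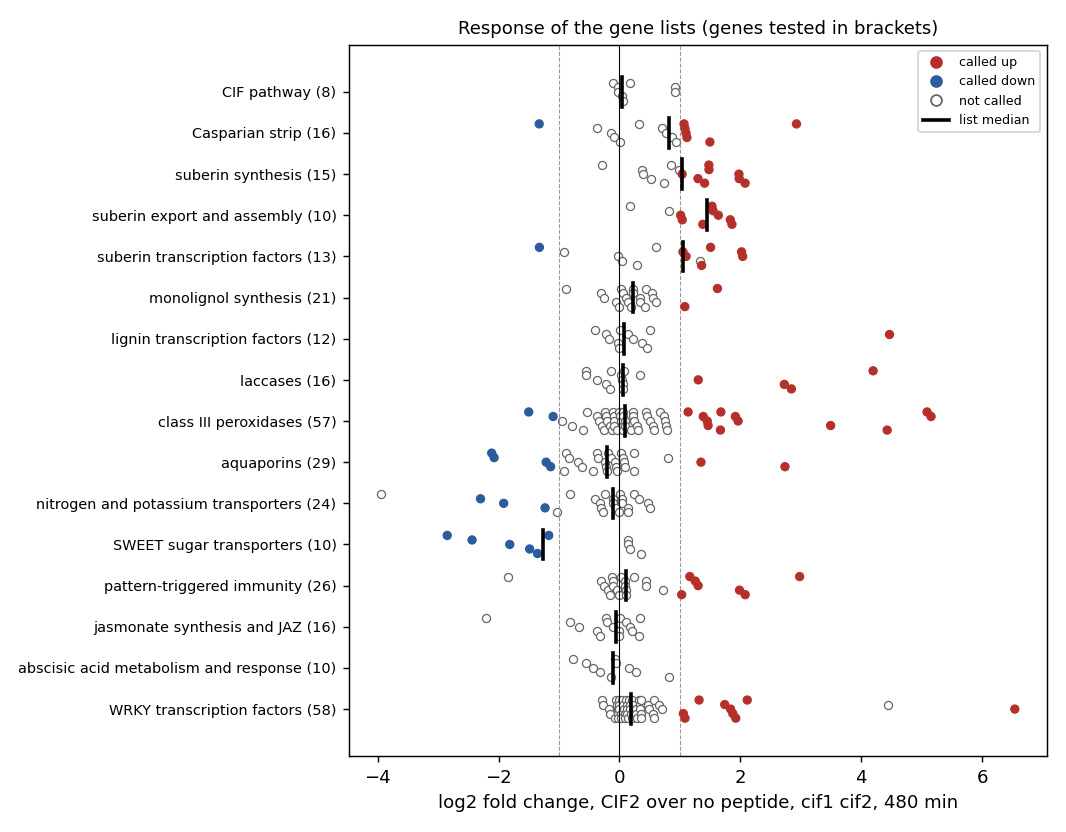
Log2 fold change of CIF2 over no peptide in *cif1 cif2* at 480 min for every tested member of 16 gene lists, 1 point per gene. Filled points are called up (red) or down (blue), open points are not called, black bars are list medians and dashed lines mark the fold change threshold. The 3 suberin lists have medians from 1.04 to 1.46, and the SWEET list has −1.26.

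Many genes of suberin synthesis rose. Of 15 genes for suberin monomer synthesis, 8 were called up and none down, with a list median of 1.04. *LACS2* (AT1G49430), which activates fatty acids to their CoA esters, had 532, 506 and 449 CPM in CIF2-treated roots, against 133, 117 and 102 CPM in untreated roots (log2FC 2.08 ± 0.13 SE, edgeR adjusted *P* = 3.6e-16). The fatty acyl reductases *FAR4* and *FAR5* make the primary alcohols of suberin, and *FAR4* (AT3G44540) had 212, 223 and 209 CPM in CIF2-treated roots, against 67.0, 50.6 and 46.6 CPM in untreated roots (log2FC 1.98 ± 0.12 SE, edgeR adjusted *P* = 3.0e-16), while *FAR5* had a log2FC of 1.48 (SE 0.14, edgeR adjusted *P* = 5.4e-11). The glycerol-3-phosphate acyltransferases *GPAT7* and *GPAT5* had values of 1.98 (SE 0.15, edgeR adjusted *P* = 2.1e-13) and 1.48 (SE 0.12, edgeR adjusted *P* = 1.8e-13). *GPAT5* (AT3G11430), a common marker of suberised cells, had 177, 179.6 and 155 CPM in CIF2-treated roots, against 67.2, 60.5 and 55.8 CPM in untreated roots. The cytochromes P450 *CYP86A1* and *CYP86B1*, which add the terminal oxygen to the chains, and the elongase *KCS1* rose by 1.41, 1.3 and 1.04. *KCS11*, at −0.28, was the only member with a value below 0.

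Genes of suberin export and assembly rose too. Of 10 genes, 8 were called up and none down, and the median was 1.46. The transporters of the ABCG family carry suberin parts out of the cell. *ABCG6* (AT5G13580) had 608, 548 and 518 CPM in CIF2-treated roots, against 188, 149.8 and 133 CPM in untreated roots (log2FC 1.83 ± 0.14 SE, edgeR adjusted *P* = 1.2e-13). *ABCG20* (AT3G53510) had 269, 246 and 221 CPM in CIF2-treated roots, against 99.5, 82.9 and 73.0 CPM in untreated roots (log2FC 1.53 ± 0.11 SE, edgeR adjusted *P* = 2.4e-14). *ABCG16* and *ABCG1* had log2FC values of 1.86 (SE 0.18, edgeR adjusted *P* = 8.5e-11) and 1.55 (SE 0.16, edgeR adjusted *P* = 2.1e-10), and *ABCG2* had 0.81 and was not called. The GDSL lipases *GELP38*, *GELP51* and *GELP96*, known to polymerise suberin, had 1.38, 1.64 and 1.04. *GELP51* (AT2G23540) had 1019, 1083 and 1089.7 CPM in CIF2-treated roots, against 351, 342 and 333 CPM in untreated roots (log2FC 1.64 ± 0.13 SE, edgeR adjusted *P* = 3.4e-13), and the lipid transfer protein gene *LTPG15* had 1.01.

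The transcription factors behind suberin did not move in one direction. Of 13 tested, 6 were called up and 1 down. *MYB107* (AT3G02940) had 17.7, 19.8 and 17 CPM in CIF2-treated roots, against 6.13, 4.25 and 3.04 CPM in untreated roots (log2FC 2.04 ± 0.17 SE, edgeR adjusted *P* = 1.0e-12). *MYB93* (AT1G34670) had 137, 149 and 142 CPM in CIF2-treated roots, against 33.7, 35.3 and 36.4 CPM in untreated roots (log2FC 2.02 ± 0.14 SE, edgeR adjusted *P* = 4.7e-15). *MYB9*, *MYB53* and *MYB41* had log2FC values of 1.51 (SE 0.12, edgeR adjusted *P* = 2.4e-13), 1.36 (SE 0.13, edgeR adjusted *P* = 1.3e-10) and 1.1 (SE 0.21, edgeR adjusted *P* = 1.1e-04), and *ANAC058* had 1.05. With batch 2 left out, *MYB41* had 0.94 and was no longer called. *MYB74* (AT4G05100) fell, with 9.5, 6.69 and 6.63 CPM in CIF2-treated roots, against 20, 18.4 and 19.4 CPM in untreated roots (log2FC −1.33 ± 0.16 SE, edgeR adjusted *P* = 2.4e-08). *MYB39*, a regulator of suberin in the endodermis, had −0.92, short of the fold threshold, and *MYB92* −0.02. With the adjusted *P*-value alone, 7 of the 13 passed with a higher and 2 with a lower level. *MYB102* had 1.34 without passing the adjusted *P*-value.

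Of the Casparian strip genes, 16 of 17 were tested, and 6 were called up and 1 down, with a median of 0.82. *CASP4* (AT5G06200, chr5:1877134-1878324) had 55.6, 66.5 and 83.6 CPM in CIF2-treated roots, against 7.22, 9.32 and 10.4 CPM in untreated roots (log2FC 2.93 ± 0.19 SE, edgeR adjusted *P* = 1.0e-15). *CASP1* and *CASP2* had log2FC values of 0.93 (SE 0.12, edgeR adjusted *P* = 1.2e-07) and 0.70 (SE 0.12, edgeR adjusted *P* = 4.0e-05), below the fold threshold. *CASP5* (AT5G15290) went the other way, with 6.35, 8.89 and 13.4 CPM in CIF2-treated roots, against 17.1, 20.4 and 34.5 CPM in untreated roots (log2FC −1.33 ± 0.17 SE, edgeR adjusted *P* = 4.9e-08). In each arm its value was lowest in batch 1 and highest in batch 3, and within every batch the treated library was lower.

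Dirigent proteins guide the coupling of lignin units. *DIR24*, *DIR18*, *DIR16* and *DIR9* had log2FC values of 1.5 (SE 0.12, edgeR adjusted *P* = 1.8e-13), 1.12 (SE 0.12, edgeR adjusted *P* = 2.0e-09), 1.08 (SE 0.13, edgeR adjusted *P* = 1.8e-08) and 1.07 (SE 0.12, edgeR adjusted *P* = 2.3e-09), and *ESB1*, the dirigent protein gene best known from Casparian strip mutants, had 0.87 (SE 0.11, edgeR adjusted *P* = 8.8e-08). *DIR24* (AT3G55230) had 456, 471 and 528 CPM in CIF2-treated roots, against 161, 164 and 191 CPM in untreated roots. With batch 3 left out, *DIR9* had 0.99 and was no longer called. *MYB36* (AT5G57620), the transcription factor that switches on the CASP genes, had 38.0, 43.8 and 52.0 CPM in CIF2-treated roots, against 25.3, 24.9 and 27.7 CPM in untreated roots (log2FC 0.77 ± 0.14 SE, edgeR adjusted *P* = 9.6e-05). The endodermal identity factor *SCR* had −0.38 (SE 0.06, edgeR adjusted *P* = 3.5e-06), while *SHR*, which acts above it, had 0.01 (SE 0.07, edgeR adjusted *P* = 0.973). *UCC1*, *LOTR1* and *EXO70A1*, which act at the strip, had 0.32, −0.15 and −0.08, and none of the 3 passed the adjusted *P*-value. Annotated genes on the other strand overlap *DIR9*, *DIR16*, *DIR18*, *ESB1*, *CASP1* and *CASP5*.

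None of the 8 genes of the pathway itself was called by edgeR, limma-trend or DESeq2, and 2 had an unadjusted edgeR *P*-value under 0.05. These were the receptor genes *SGN3* (AT4G20140), with 209.7, 194 and 239 CPM in CIF2-treated roots, against 114, 108 and 118 CPM in untreated roots (log2FC 0.92 ± 0.13 SE, edgeR adjusted *P* = 3.0e-07), and its close relative *GSO2* (AT5G44700), with 17.2, 17.9 and 21.6 CPM in CIF2-treated roots, against 9.28, 9.39 and 11.1 CPM in untreated roots (log2FC 0.92 ± 0.14 SE, edgeR adjusted *P* = 1.9e-06). For both, every treated library was above every untreated one. *CIF1* (AT2G16385) had 4.93, 5.39 and 4.81 CPM in CIF2-treated roots, against 5.67, 4.82 and 4.12 CPM in untreated roots, and *CIF2* (AT4G34600) had 50.1, 56.4 and 51.3 CPM in CIF2-treated roots, against 55.3, 50.6 and 47.0 CPM in untreated roots. Transcripts of both mutated genes were thus counted in all 6 libraries, and since a small CRISPR lesion need not remove the transcript, their counts do not check the genotype. *TPST*, whose enzyme sulfates the peptides, and the kinase gene *SGN1* had log2FC values of −0.03 and −0.02. The NADPH oxidase genes *RBOHD* and *RBOHF*, which supply the peroxide for lignin in the endodermis, had 0.17 and −0.10. Their relative *RBOHB* (AT1G09090), not on the list, was among the 10 largest decreases, with 9.32, 9.51 and 9.65 CPM in CIF2-treated roots, against 39.7, 33.8 and 37.7 CPM in untreated roots (log2FC −1.97 ± 0.14 SE, edgeR adjusted *P* = 1.4e-14), and an annotated gene on the other strand overlaps it.

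The 10 largest decreases, ranked under the same limits as the increases, included 5 genes of channels and transporters, *SKOR*, *SLAH1*, *SWEET11*, *PIP2;3* and *TIP2;3*. *GLIP2* (AT1G53940, chr1:20143144-20144974), a GDSL lipase gene, had 3.15, 2.23 and 3.64 CPM in CIF2-treated roots, against 39.6, 39.3 and 48.0 CPM in untreated roots (log2FC −3.84 ± 0.18 SE, edgeR adjusted *P* = 1.3e-19). AT1G33320, annotated in the family of pyridoxal phosphate-dependent transferases, had 0.772, 0.721 and 0.768 CPM in CIF2-treated roots, against 7.69, 9.32 and 9.24 CPM in untreated roots (log2FC −3.53 ± 0.18 SE, edgeR adjusted *P* = 1.7e-18). AT5G43540, a C2H2 zinc finger gene, and AT4G11190, a dirigent-like gene, had −2.88 (SE 0.17, edgeR adjusted *P* = 1.3e-16) and −2.24 (SE 0.15, edgeR adjusted *P* = 1.8e-15). The treated libraries of these genes lay below all untreated ones.

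Of 29 aquaporins tested, 4 were called down and 2 up, with a median of −0.20. *PIP2;3* (AT2G37180), a water channel of the plasma membrane, had 25.7, 21.8 and 21.4 CPM in CIF2-treated roots, against 101, 91.3 and 98.6 CPM in untreated roots (log2FC −2.07 ± 0.13 SE, edgeR adjusted *P* = 6.1e-16). *TIP2;3* (AT5G47450), a water and ammonia channel of the vacuole, had 13, 14.9 and 17.2 CPM in CIF2-treated roots, against 59.8, 57.0 and 78.5 CPM in untreated roots (log2FC −2.12 ± 0.22 SE, edgeR adjusted *P* = 6.3e-10). *PIP1;1* and *TIP2;2* had −1.14 (SE 0.11, edgeR adjusted *P* = 1.5e-10) and −1.21 (SE 0.17, edgeR adjusted *P* = 4.3e-07), and without batch 3 *TIP2;2* had −0.99 and was no longer called. *PIP2;2*, a near-identical neighbour of *PIP2;3*, had −0.92. Reads without a unique alignment are tallied apart in the deposited counts, and that tally was left out. Those called up were *NIP4;2*, with 10.7, 11.3 and 10.4 CPM in CIF2-treated roots, against 1.47, 1.73 and 1.62 CPM in untreated roots (log2FC 2.74 ± 0.21 SE, edgeR adjusted *P* = 1.5e-13), and *NIP1;2*, at 1.35 (SE 0.13, edgeR adjusted *P* = 3.1e-11).

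Of 24 nitrogen and potassium transporters, 3 were called down and none up. *SKOR* (AT3G02850), the channel that releases potassium into the xylem, had 3.77, 3.16 and 4.36 CPM in CIF2-treated roots, against 18.2, 17.6 and 19.4 CPM in untreated roots (log2FC −2.30 ± 0.18 SE, edgeR adjusted *P* = 1.2e-13). *SLAH1* (AT1G62280), an anion channel partner in the stele, had 0.979, 0.686 and 0.525 CPM in CIF2-treated roots, against 2.91, 1.55 and 3.81 CPM in untreated roots (log2FC −1.92 ± 0.38 SE, edgeR adjusted *P* = 2.8e-04). *NPF2.3*, a nitrate exporter of the pericycle, had −1.23 (SE 0.14, edgeR adjusted *P* = 8.7e-09). An annotated gene on the other strand overlaps *SKOR*. The nitrate transporter gene *NRT2.6* had −3.95 and the ammonium transporter gene *AMT1;2* −0.83, and neither was called.

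SWEET proteins let sugars leave cells. Of 17 genes, 10 passed the filter, and 6 of these fell and none rose, with a median of −1.26. *SWEET11* (AT3G48740), which loads sucrose into the phloem path, had 0.742, 1.34 and 1.54 CPM in CIF2-treated roots, against 6.13, 4.43 and 8.7 CPM in untreated roots (log2FC −2.44 ± 0.58 SE, edgeR adjusted *P* = 0.0023). *SWEET12* (AT5G23660), its closest relative, had 1.04, 0.961 and 2.99 CPM in CIF2-treated roots, against 4.04, 4.43 and 8.26 CPM in untreated roots (log2FC −1.82 ± 0.53 SE, edgeR adjusted *P* = 0.0171). *SWEET13* had −1.49 (SE 0.25, edgeR adjusted *P* = 1.8e-05) and *SWEET3*, with at most 2.77 CPM in any of the 6 libraries, −2.85 (SE 0.50, edgeR adjusted *P* = 3.7e-05). *SWEET14* and *SWEET1* had −1.36 and −1.17. These are low-level genes, and with batch 3 left out *SWEET11* had −2.36 (edgeR adjusted *P* = 0.105) and *SWEET12* −2.09 (edgeR adjusted *P* = 0.114). Without batch 2, *SWEET12* had −1.68 (edgeR adjusted *P* = 0.100). Without the filter on low counts the median of the SWEET list was 0.04. The leaf markers also had a median below 0. Of 12 tested, 1 was called down and 4 passed the adjusted *P*-value, all lower, with a list median of −0.64. Their summed level was 75.1, 54.4 and 74.8 CPM in CIF2-treated roots, against 105, 74.2 and 99.3 CPM in untreated roots, and 3 to 5 of the 13 were at 0 counts in each library. The part of leaf RNA in the decreases was not tested. In bulk roots, fewer cells of a type and less RNA per cell cannot be told apart.

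Of 26 genes of pattern-triggered immunity, 7 were called up and none down. *FRK1* (AT2G19190), a receptor kinase gene used as a readout of this response, had 9.29, 10.6 and 15.1 CPM in CIF2-treated roots, against 1.4, 1.62 and 1.38 CPM in untreated roots (log2FC 2.98 ± 0.25 SE, edgeR adjusted *P* = 1.1e-12). *CYP81F2* (AT5G57220), an enzyme of indole glucosinolates, had 24.1, 24.4 and 18.7 CPM in CIF2-treated roots, against 5.28, 5.04 and 6.21 CPM in untreated roots (log2FC 1.99 ± 0.29 SE, edgeR adjusted *P* = 1.3e-06). *PROPEP2*, a precursor of danger peptides, had 2.08 (SE 0.25, edgeR adjusted *P* = 2.1e-08), and the flagellin receptor gene *FLS2* had 1.25 (SE 0.27, edgeR adjusted *P* = 7.6e-04). *PROPEP3* and *MYB51* had 1.03 and 1.16. *CYP71A12* had 1.3 (SE 0.38, edgeR adjusted *P* = 0.0189), and it was not called without batch 2, at 0.88 (edgeR adjusted *P* = 0.443), or without batch 3, at 1.31 (edgeR adjusted *P* = 0.113). The kinase genes *MPK3*, *MKK4* and *MKK5* had 0.09, −0.04 and −0.13. The median of the list was 0.10.

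WRKY transcription factors bind the W-box of many defence genes. Of 58 tested of 71, 9 were called up and none down. *WRKY41*, at 4.44, was not called. Beside *WRKY71*, those called were *WRKY30*, *WRKY28*, *WRKY24*, *WRKY53*, *WRKY56*, *WRKY43*, *WRKY15* and *WRKY74*. *WRKY24* (AT5G41570) had 40, 38.4 and 39.1 CPM in CIF2-treated roots, against 11.1, 10.2 and 10.7 CPM in untreated roots (log2FC 1.88 ± 0.15 SE, edgeR adjusted *P* = 4.1e-13). *WRKY53* (AT4G23810) had 7.3, 9.64 and 9.98 CPM in CIF2-treated roots, against 2.06, 2.52 and 2.9 CPM in untreated roots (log2FC 1.84 ± 0.23 SE, edgeR adjusted *P* = 4.3e-08). *WRKY28* had 1.92 (SE 0.30, edgeR adjusted *P* = 4.5e-06), and *WRKY30* had 2.11 (SE 0.52, edgeR adjusted *P* = 0.00348). Without batch 1 or batch 2, *WRKY30* had 1.90 (edgeR adjusted *P* = 0.0707) or 1.96 (edgeR adjusted *P* = 0.0871).

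None of 16 jasmonate genes and none of 10 abscisic acid genes was called by edgeR, limma-trend or DESeq2, and 0 and 3 of them had an unadjusted edgeR *P*-value under 0.05. In the abscisic acid list 1 gene passed the adjusted *P*-value, with a lower level below the fold threshold. The list medians were −0.06 and −0.11. The markers of root hair, cortex, xylem, phloem, root cap, meristem and lateral root, 32 tested genes in all, also gave no call with any of the 3 tools, with 7 unadjusted edgeR *P*-values under 0.05 and list medians between −0.18 and 0.16. Over all 19668 genes tested, 4215 had an unadjusted edgeR *P*-value under 0.05 and 2139 passed the adjusted *P*-value. Of the markers, 4 passed the adjusted *P*-value, 1 cortex marker with a lower and 1 phloem and 2 meristem markers with a higher level. The part of these cell types in the response was not tested. The summed level of the 2 cortex markers was 7.66, 7.89 and 8.77 CPM in CIF2-treated roots, against 9.63, 11.9 and 10.7 CPM in untreated roots, and these did not overlap. The 2 markers went opposite ways, with log2FC values of −0.49 and 0.13. Of all genes tested, 21.5% had arms that did not overlap.

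The time at which these genes moved was read from *cif1 cif2* at 30 and 120 min, whose libraries are not shared with those at 480 min. Of the 416 genes called up at 480 min, 110 (26.4%) were also called up at 30 min, which is 30.9% of the 356 called there (1.81% of all tested). At 120 min, 203 (48.8%) were called up too, 58.2% of 349 (1.77%). A set of 96 genes was called up at all 3 times, and 199 were called up at 480 min only. Of the 70 genes called down, 2 (2.86%) were among the 10 called down at 30 min (0.0508%), 20% of these, and 20 (28.6%) among the 65 at 120 min (0.33%), 30.8% of these. The 199 late genes had median log2FC values of 0.13, 0.36 and 1.41 at 30, 120 and 480 min, and the 96 genes called at all 3 times of 2.07, 2.26 and 2.01. A further 246 genes called up at 30 min were not called at 480 min, with medians of 1.34, 0.59 and 0.39. These values are relative to untreated roots of the same time, whose levels also changed for some genes. *PER62*, called up at all 3 times, had means of 259, 255 and 73.8 CPM with CIF2, against 39.6, 17.6 and 3.41 CPM without. *PER15*, also called at all 3 times, rose with CIF2, from 15.4 to 30.5 and 128 CPM, against 5.2, 2.7 and 3.79 CPM without. The change of the levels over time was not tested for these sets.

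The change of the effect between 30 and 480 min was tested directly and passed for 1446 genes (7.35%), 673 higher and 773 lower at 480 min. Of the 199 late genes, 155 passed, and of the 246 early genes, 126. Both sets were picked by calls on the same libraries, so the direction of the difference follows from the choice and these counts are descriptions. *LAC13* had a log2FC of −0.14 at 30 min, 0.82 at 120 min and 2.85 at 480 min (480 minus 30 min, log2FC 2.99 ± 0.18 SE, edgeR adjusted *P* = 6.4e-15). *LAC5* had 0.26, 0.91 and 2.73, and AT5G55180, a glycosyl hydrolase of family 17, 0.33, 0.80 and 2.76. On the falling side, *GLIP2* had −0.05, −1.04 and −3.84 (480 minus 30 min, log2FC −3.80 ± 0.25 SE, edgeR adjusted *P* = 2.0e-14), AT1G33320 −0.09, −1.62 and −3.53, and *PER32* 0.03, −0.46 and −1.5. Among the lists, 11 of 15 genes of suberin synthesis and 8 of 10 of export and assembly passed with a larger effect at 480 min, against 1 of 26 for immunity, where 10 passed with a smaller one. The suberin transcription factors went both ways, with 5 of 13 larger and 2 smaller at 480 min. Not every suberin gene was highest at 480 min. *ABCG16* had 1.98, 3.25 and 1.86 at the 3 times (480 minus 30 min, log2FC −0.12 ± 0.25 SE, edgeR adjusted *P* = 0.885), *MYB41* 0.96, 2.48 and 1.1, and *GPAT7* 1.44, 2.31 and 1.98. *MYB36* had its larger values early, 1.76 at 30 min and 1.76 at 120 min (480 minus 30 min, log2FC −0.98 ± 0.20 SE, edgeR adjusted *P* = 6.7e-04). *RBOHD* had 0.95 at 30 min and 0.17 at 480 min (480 minus 30 min, log2FC −0.78 ± 0.14 SE, edgeR adjusted *P* = 1.7e-04). *CASP4* had 1.53, 4.35 and 2.93 at the 3 times.

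**Figure D3:**
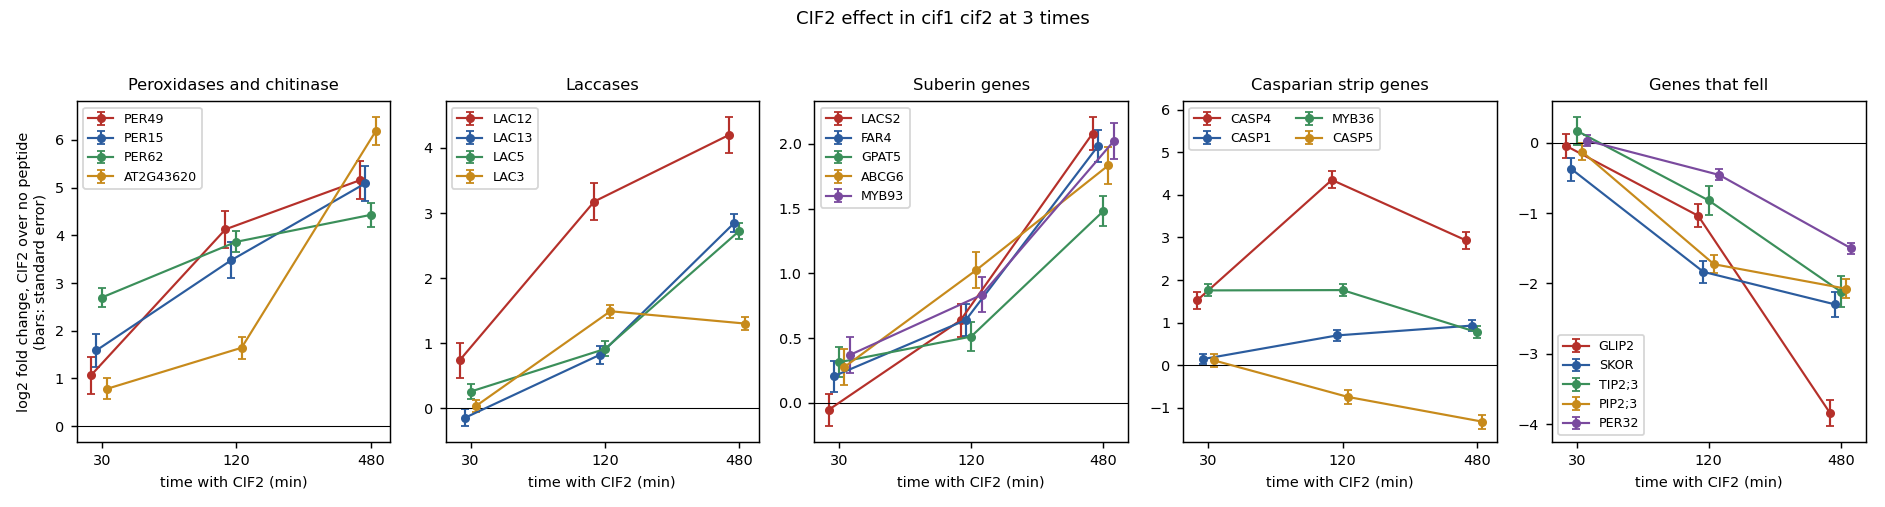
Log2 fold change of CIF2 over no peptide in *cif1 cif2* (y axis) after 30, 120 and 480 min (x axis, evenly spaced), with standard errors of the edgeR fit as bars. *LAC12*, *LAC13*, *LAC5* and the 5 suberin genes plotted have their highest value at 480 min, while *CASP4* and *LAC3* are highest at 120 min.

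The receptor mutant gave the reference for a response without SGN3. For CIF2 in *sgn3* at 480 min, no gene was called and none passed the adjusted *P*-value. There, 1017 genes had an unadjusted edgeR *P*-value under 0.05. The CIF2 effect in *cif1 cif2* differed from that in *sgn3* at 480 min for 919 genes (4.67%), 708 with a higher and 211 with a lower effect in *cif1 cif2*. Of the 416 genes called up in *cif1 cif2*, 333 passed this test in the same direction, and of the 70 called down, 52. The 480 min libraries of *cif1 cif2* also chose these genes, so these counts are descriptions. In *sgn3* the same genes had medians of 0.09 and −0.06. *LAC13* differed by 2.77 (SE 0.19, edgeR adjusted *P* = 2.3e-14), AT5G55180 by 2.61 (SE 0.16, edgeR adjusted *P* = 1.5e-15) and *LAC5* by 2.51 (SE 0.16, edgeR adjusted *P* = 1.8e-14), and on the falling side *GLIP2* by −3.90 (SE 0.23, edgeR adjusted *P* = 1.5e-15), AT1G33320 by −3.46 (SE 0.23, edgeR adjusted *P* = 2.8e-14) and *PER32* by −1.55 (SE 0.11, edgeR adjusted *P* = 1.6e-13). *CASP4* had 68.6 ± 14.1 CPM in treated and 8.96 ± 1.6 CPM in untreated *cif1 cif2*, and 12.4 ± 3.58 and 13.8 ± 4.94 CPM in treated and untreated *sgn3* (SD, n = 3 each).

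Against wild type, the test asks whether roots without their own peptide answer more or less than roots that have it. It passed for 1 gene (0.00508%), *CASP4*, and 576 genes had an unadjusted edgeR *P*-value under 0.05. For *CASP4* the difference was 2.31 (SE 0.25, edgeR adjusted *P* = 3.4e-07), with a log2FC of 2.93 in *cif1 cif2* and 0.62 in wild type. For the other named genes the difference was not detectable, which does not show that the genotypes answered alike. *WRKY71* had 6.54 in *cif1 cif2* and 5.32 in wild type, a difference of 1.23 with a standard error of 0.81. *PER49* differed by 0.93 (standard error 0.50) and *LACS2* by 0.05 (standard error 0.18). Of the genes called up in *cif1 cif2*, 330 (79.3%) were called up in wild type, 86.8% of those there, and of the genes called down 48 (68.6%), 67.6% of those there.

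**Figure D4:**
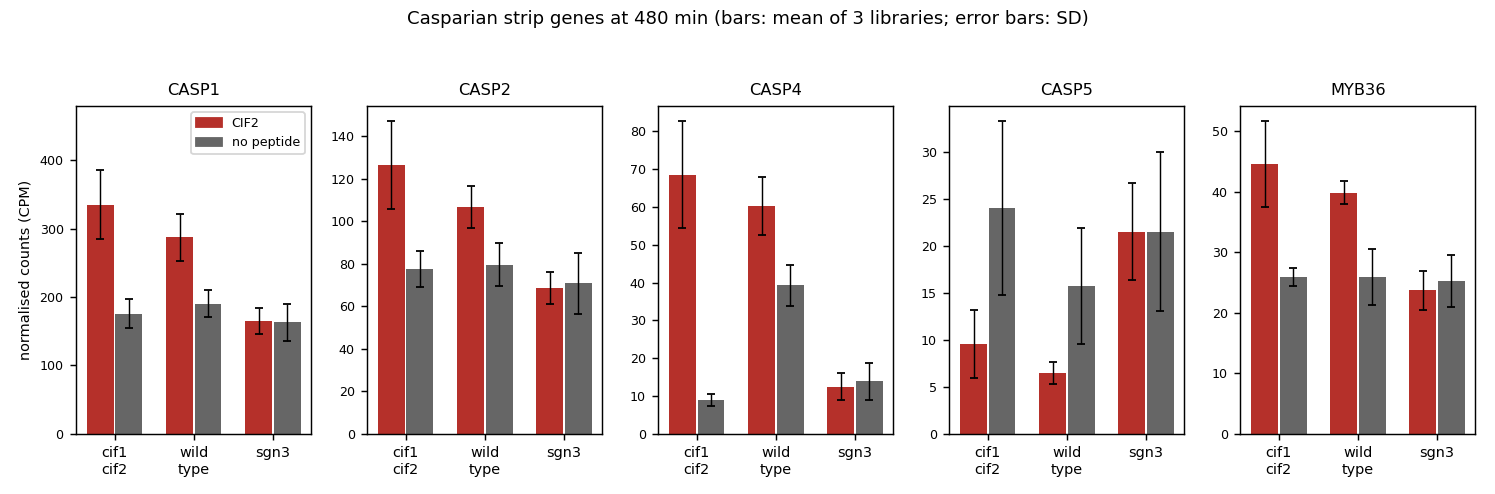
Normalised counts (CPM) of *CASP1*, *CASP2*, *CASP4*, *CASP5* and *MYB36* at 480 min in *cif1 cif2*, wild type and *sgn3*, with CIF2 (red, left bar of each pair) and without peptide (grey). Bars are means of 3 libraries and error bars the SD. Untreated *CASP4* is lower in *cif1 cif2* and *sgn3* than in wild type. With CIF2 its mean in *cif1 cif2* is 68.6 CPM, against 60.3 CPM in treated and 39.2 CPM in untreated wild type. In treated *sgn3* it is 12.4 CPM.

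Without peptide, 11 genes (0.0559%) differed between *cif1 cif2* and wild type at 480 min, 6 higher and 5 lower in the mutant. *CASP4* had 8.96 ± 1.6 CPM in untreated *cif1 cif2*, against 39.2 ± 5.54 CPM in untreated wild type (SD, n = 3 each; log2FC −2.14 ± 0.19 SE, edgeR adjusted *P* = 5.1e-10). *CLE4*, a peptide gene, had 1.87 ± 0.233 CPM in *cif1 cif2*, against 0.805 ± 0.191 CPM in wild type (log2FC 1.19 ± 0.21 SE, edgeR adjusted *P* = 0.00324), and the transporter gene *UMAMIT35* had 12.2 ± 1.87 CPM, against 5.93 ± 1.57 CPM (log2FC 1.04 ± 0.19 SE, edgeR adjusted *P* = 0.0051). With any 1 batch left out *CLE4* had 1.07 to 1.29 and was not called, and *UMAMIT35* was not called without batch 2, at 0.95, or without batch 3, at 0.99.

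With CIF2, 4 genes (0.0203%) differed, 1 higher and 3 lower. *CASP4* was no longer among them, with 68.6 ± 14.1 CPM in treated *cif1 cif2*, against 60.3 ± 7.65 CPM in treated wild type (log2FC 0.17 ± 0.16 SE, edgeR adjusted *P* = 0.795). AT3G44670, a disease resistance gene of the TIR-NBS-LRR class, was higher with and without peptide. It had 16.1 ± 3.64 and 15.4 ± 2.75 CPM in treated and untreated *cif1 cif2*, against 1.8 ± 0.0767 and 1.92 ± 0.293 CPM in wild type. It also had 15.4 ± 3.66 and 15.9 ± 3.66 CPM in treated and untreated *sgn3*, close to *cif1 cif2*. The noncoding gene AT2G06995 had 0 to 2 counts in each of the 6 *cif1 cif2* libraries, against 0.632 to 0.873 CPM in treated wild type, and AT3G12900, a 2-oxoglutarate-dependent oxygenase gene, had 0 to 4 counts, against 0.526 to 1.08 CPM. The noncoding gene AT2G05665 had 0.267 ± 0.0943 CPM in treated *cif1 cif2*, against 0.832 ± 0.204 CPM in treated wild type. The 3 lower genes rest on few counts, and with CIF2 each lost its call when batch 1 or batch 2 was left out. AT3G44670 kept its call in every alternative that gave an adjusted *P*-value, and an annotated gene on the same strand overlaps it.

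The sequence before the gene starts was searched for short motifs, in the 300 bases upstream of each annotated start in TAIR10.1 and on both strands. The core of the W-box, TTGAC, which WRKY factors bind, was in 292 of the 416 promoters of genes called up (70.2%), against 50.8% of 19658 tested genes with such a window and 49.5% of 37897 annotated genes. It was in 25 of the 70 promoters of genes called down (35.7%). At least 2 copies were found in 38.0% of the genes called up, 12.9% of those called down and 18.3% of all tested. Among the genes called up at 480 min, 81.8% of the 110 also called up at 30 min held it, against 60.3% of the 199 called up at 480 min only. The other motifs were rare. ACCTACC, an AC element of lignin genes, was in 2.64% of the promoters of genes called up and 1.42% of those tested, ACCAACC in 4.33% and 3.25%, the GCC box GCCGCC in 1.44% and 2.39%, and the G-box CACGTG in 5.29% and 7.9%. The G-box was in 12.9% of the promoters of the genes called down. These shares are descriptions, and a match in the letters is not a shown binding site.

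The windows of 4 genes are given to show how the core was placed in a chitinase family gene, a peroxidase gene and a CASP gene that rose, and in the gene with the largest fall. They are written 5′ to 3′ along the gene's own strand and end at the base before the gene start, from RefSeq TAIR10.1. Capitals mark TTGAC or its reverse complement GTCAA. AT2G43620 (chr2:18095094-18095393, minus strand) has 3 cores and *PER62* (chr5:15849142-15849441, minus strand) has 3. *CASP4* (chr5:1876834-1877133, plus strand) has 2, and *GLIP2* (chr1:20142844-20143143, plus strand) has 1.
AT2G43620: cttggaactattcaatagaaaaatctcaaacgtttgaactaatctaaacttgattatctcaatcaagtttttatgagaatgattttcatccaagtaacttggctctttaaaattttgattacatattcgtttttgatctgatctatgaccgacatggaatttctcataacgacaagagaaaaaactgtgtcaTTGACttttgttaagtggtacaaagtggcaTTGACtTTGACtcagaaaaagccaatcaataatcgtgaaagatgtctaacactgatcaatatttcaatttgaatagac
PER62: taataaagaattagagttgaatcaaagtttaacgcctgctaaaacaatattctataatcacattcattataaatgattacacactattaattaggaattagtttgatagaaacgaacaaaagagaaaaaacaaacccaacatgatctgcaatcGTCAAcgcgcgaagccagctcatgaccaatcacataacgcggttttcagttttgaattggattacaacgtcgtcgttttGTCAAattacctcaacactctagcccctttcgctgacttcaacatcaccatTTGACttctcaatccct
CASP4: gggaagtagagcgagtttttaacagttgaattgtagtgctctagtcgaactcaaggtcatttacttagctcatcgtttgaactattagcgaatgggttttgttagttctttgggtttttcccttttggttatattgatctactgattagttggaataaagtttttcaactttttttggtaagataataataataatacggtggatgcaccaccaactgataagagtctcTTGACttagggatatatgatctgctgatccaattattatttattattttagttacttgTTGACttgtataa
GLIP2: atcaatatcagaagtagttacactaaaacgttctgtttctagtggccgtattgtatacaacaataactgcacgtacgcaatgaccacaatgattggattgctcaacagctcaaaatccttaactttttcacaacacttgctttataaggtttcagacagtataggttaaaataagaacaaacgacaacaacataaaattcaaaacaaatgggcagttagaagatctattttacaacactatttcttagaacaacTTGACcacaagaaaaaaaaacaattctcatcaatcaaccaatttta
In AT2G43620 the 3 cores begin 108, 78 and 72 bases before the gene start, and in *CASP4* 71 and 13 bases before it. *WRKY71*, *LAC12* and AT1G72060, 3 of the 12 largest increases, have no match in their windows.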

How the data were processed

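Poly(A) RNA of whole roots was sequenced with a stranded TruSeq kit. The authors trimmed reads with Cutadapt 1.8, aligned them to TAIR10 with STAR 2.5.3a and counted reads per gene with htseq-count (HTSeq 0.9.1), and the deposited values are raw counts per gene. Whether counting used strand is not given in the sources used here. The 5 tally lines of each file (4.84 to 5.06% of the counts in the 6 libraries) were left out. The 6 libraries held 24832221 to 33352177 genic reads, and all 54 held 21328819 to 38588050. Low values are limited by counting error.

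The 19668 of 34262 genes that reached 1 CPM in any library were fitted over all 54 libraries in 18 groups with batch as a block, with TMM scaling and the quasi-likelihood test of edgeR 4.0.16 (R 4.3.3) and Benjamini-Hochberg adjustment per comparison. For differences of effects no fold threshold was set. SE is the log2 fold change divided by the square root of F. CPM values are TMM-scaled. limma 3.58.1 (limma-trend) and DESeq2 1.42.0, other scaling, filters, thresholds and sample sets, no block, and leaving out each batch were alternatives. The titles give the batch number. Deviations of treated and untreated libraries of the same batch correlated at 0.49, 0.20 and 0.41, so the batch block was kept.

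The members and lists were chosen with earlier results of these data known. Named genes were the 12 largest increases and 10 largest decreases among called genes with the same direction in every batch and a mean of at least 2 CPM in the higher arm, *CIF1*, *CIF2* and *SGN3*, up to 5 risers and 4 fallers of each list, the Casparian strip genes, and the 3 smallest *P*-values in each direction of the other comparisons. Other list members were named after their values were seen, and 1 gene that the rule names is not reported here. Promoter windows were read from the RefSeq TAIR10.1 genome. The script was tested on simulated data.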

Additional observations from a re-analysis of the deposited data

Results flagged for a closer look

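The effect of CIF2 at 480 min was tested for a difference between *cif1 cif2* and wild type with edgeR, which passed for 1 gene, *CASP4*, with a log2 difference of 2.31 (*cif1 cif2* minus wild type). The level of *CASP4* differed by −2.14 without peptide and by 0.17, not detectable, with CIF2.

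Between *cif1 cif2* and *sgn3* the same test passed for 919 genes. The genes with the smallest *P*-values had log2 differences (*cif1 cif2* minus *sgn3*) of 2.77 for *LAC13*, 2.61 for AT5G55180 and 2.51 for *LAC5* on the higher side, and of −1.55 for *PER32*, −3.46 for AT1G33320 and −3.90 for *GLIP2* on the lower side.

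Within *cif1 cif2*, the effect differed between 480 and 30 min for 1446 genes. The same 6 genes led in *P*-value, with log2 differences (480 minus 30 min) of 2.99 for *LAC13*, 2.43 for AT5G55180, 2.47 for *LAC5*, −1.53 for *PER32*, −3.44 for AT1G33320 and −3.80 for *GLIP2*. Both comparisons use the same 480 min libraries of *cif1 cif2*, so the shared genes are not independent evidence.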

How the results depend on the processing

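With the adjusted *P*-value alone, 1368 genes were called up and 771 down by CIF2 in *cif1 cif2* at 480 min. Without the replicate block 404 were called up, 403 of them also with it, and 66 down. With a batch left out, 365 to 429 were called up and 55 to 65 down. The difference from wild type gave 2 genes with DESeq2 and 1 to 3 with a batch left out. The difference from *sgn3* gave 1460 genes when only the libraries compared were fitted, and 465 to 621 with a batch left out. The difference between 480 and 30 min gave 943 genes without the replicate block, 912 at an adjusted *P* of at most 0.01, and 753 to 1027 with a batch left out. Untreated *cif1 cif2* against wild type gave 7 genes at that threshold, 36 with no fold threshold and 4 to 5 with a batch left out. With CIF2, the same contrast gave 2 without the replicate block, 7 with only the libraries compared, 2 at an adjusted *P* of at most 0.01, 8 with no fold threshold and 1 to 2 with a batch left out. DESeq2 gave these 4 genes no adjusted *P*-value, so it has no count there. With a batch left out, the log2 values of 4 uncalled genes spanned 0: *CIF1* −0.020 to 0.19, *CIF2* −0.0013 to 0.15, *SHR* −0.0054 to 0.023 and *SGN1* −0.033 to 0.011. *CYP71A12* lost its call without the replicate block (edgeR adjusted *P* = 0.0608). Of 111 values of named genes, 87 kept direction and call under every alternative. The causes of these changes were not tested. Leaving out the 3 libraries with the conflicting label removes the treated arm, so it gives no value. Genes with few counts and 3 libraries per arm set the limit of detection.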
